A study of Mus musculus with 2 samples.

Results

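The cells described here were CD8+ T cells from mouse tumours whose leading T cell receptor beta variable (Trbv) transcript was Trbv2. A cell counted as Trbv2-led when it had at least 500 detected genes and under 10% of its UMIs from mitochondrial genes, at least 1 UMI of a Cd3 gene (Cd3d, Cd3e, Cd3g), at least 1 of a Cd8 gene (Cd8a, Cd8b1), and more UMIs of Trbv2 than of any other Trbv gene. A UMI (unique molecular identifier) stands for 1 captured RNA molecule. There were 548 such cells, 210 in control cells and 338 in the NK-depleted library. They were drawn from 5401 cells with a leading Trbv gene, 15065 CD8 T cells and 17977 deposited barcodes. The remaining 4853 cells with a leading Trbv gene, 2431 and 2422 per library, served as the comparison and are called other Trbv-led cells.

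The study addressed the part that natural killer (NK) cells play in CD8+ T cell differentiation, in tumours of the mouse colon carcinoma line MC38. Both groups of mice carried the genotype label WT, and live CD8+ cells were sorted from their tumours 9 days after implantation. The control mice carried the treatment label PBS, although their library name carries the abbreviation Iso, and the NK-depleted mice received an a-NK1.1 antibody. Each group gave 1 library made with the 10x 5′ V2 chemistry, and the sources used here do not say how many mice were pooled. Other lymphocytes than NK cells can also carry NK1.1. With 1 library per group there was no replicate spread, so no test was run, and every interval below covers counting error only.

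A T cell builds its beta chain by joining a V, a D and a J segment in the thymus, after which the joined exon is spliced to a constant segment, Trbc1 or Trbc2. The V segment encodes most of the variable domain, and a conserved cysteine near its 3′ end marks the start of the joint that forms the loop which most often touches the peptide. A shared V segment therefore does not make a clone, because cells that use Trbv2 can differ in D, J, joint and alpha chain.

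The transcript that chose the cells is shown first, with the V segment whose coding sequence was closest to it, so that the distance between the 2 can be seen. Both are the coding bases of the second exon, which holds most of the V segment, from GENCODE M21 on GRCm38, 5′ to 3′, with the bases from the conserved cysteine codon to the 3′ end of the segment in capitals.
Trbv2: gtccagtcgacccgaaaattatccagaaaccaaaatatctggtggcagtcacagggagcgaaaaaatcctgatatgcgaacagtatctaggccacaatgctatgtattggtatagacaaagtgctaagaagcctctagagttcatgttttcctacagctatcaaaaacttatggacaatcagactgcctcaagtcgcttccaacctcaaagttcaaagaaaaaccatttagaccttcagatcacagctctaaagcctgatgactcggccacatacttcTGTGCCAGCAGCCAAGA
Trbv5: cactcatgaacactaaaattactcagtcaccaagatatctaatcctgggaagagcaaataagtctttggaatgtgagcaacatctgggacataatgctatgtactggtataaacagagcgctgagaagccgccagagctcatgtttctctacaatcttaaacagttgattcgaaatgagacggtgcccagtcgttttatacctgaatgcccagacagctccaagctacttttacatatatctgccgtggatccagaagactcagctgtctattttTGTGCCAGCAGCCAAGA
Trbv2 lies at chr6:41047340-41047995 on the plus strand in 2 exons with 344 coding bases, of which the 295 shown lie at chr6:41047701-41047995 and the last 17 are in capitals. Trbv5 lies at chr6:41062332-41062803, its 292 bases shown at chr6:41062512-41062803, and the whole coding sequences of the pair were 63.0% identical. The longest run of bases that Trbv2 shared exactly with any other Trbv coding sequence was 18, with Trbv3. Over 22 Trbv coding sequences, identity to the closest other segment ran from 52.3% to 90.6% with a median of 63.15%, the highest being Trbv13-2 with Trbv13-3.

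The cells held the transcripts that the rule asked for, given here as a description. A UMI of Trac, the alpha chain constant segment that the rule did not use, was found in 99.52% of Trbv2-led control cells and 99.7% of Trbv2-led NK-depleted cells. Trbv2 reached 124 CPM (UMIs per 1000000 summed UMIs of the cells) in the control members and 113 CPM in the NK-depleted members, against 0.41 and 0.23 CPM in other Trbv-led cells. Any UMI of Trbv2 was held by 0.576% of other Trbv-led control cells and 0.413% of other Trbv-led NK-depleted cells. The rule itself holds these Trbv2 levels and shares low in other cells, because 1 Trbv2 UMI would tie a lead of 1 UMI. They therefore do not measure how specific Trbv2 is to the members.

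Trbv2 was captured more deeply than most V segments. The leading gene had a median of 2 UMIs in the Trbv2-led cells of each library and a median of 1 UMI in other Trbv-led cells. A lead of only 1 UMI, the least the rule admits, carried 73 Trbv2-led control cells (34.76%) and 133 NK-depleted cells (39.35%), against 70.38% and 75.93% of other Trbv-led cells. Just outside the rule, 32 cells in each library were tied between Trbv2 and another Trbv gene. A second Trbv gene had at least 2 UMIs in 6 control and 4 NK-depleted members. It had at least 1 UMI in 18.57% and 8.58% of members, against 6.66% and 4.50% of other Trbv-led cells. A cell led by 1 UMI cannot hold a second Trbv UMI without a tie, and such cells were commoner among other Trbv-led cells. These shares therefore cannot compare how often the 2 groups held a second Trbv gene. Most CD8 T cells had no Trbv UMI at all, 57.15% in control cells and 62.82% in the NK-depleted library, so shares among Trbv-led cells depend on how well each V segment was captured.

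The Trbv2-led cells were also the deeper cells. Their median was 18708.5 UMIs in control cells and 16051 in the NK-depleted library, against 14015 and 14891 in other Trbv-led cells. The median mitochondrial share was 2.48% and 2.69%, against 2.25% and 2.73%. The 2 libraries held 108106687 and 128853437 UMIs over 7866 and 10111 barcodes. Of their barcodes, 391 occurred in both libraries, 26 of them as CD8 T cells in both, but none as Trbv-led cells in both. Doublets were not removed.

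Trbv2 was the commonest leading V segment in the NK-depleted library and ranked 4 in the control library. It led 7.95% of Trbv-led control cells (95% Clopper-Pearson interval 6.95 to 9.05) and 12.25% of Trbv-led NK-depleted cells (11.05 to 13.53), a difference of 4.30 percentage points and a ratio of 1.54 (1.29 to 1.84). Among all CD8 T cells the shares were 3.04% and 4.14%. Of 15 Trbv genes that led at least 50 cells in each library, 6 had a higher and 9 a lower share in the NK-depleted library, the ratios ran from 0.522 for Trbv12-1 to 2.17 for Trbv1, and Trbv2 ranked 4. Trbv13-1, which led most control cells, stood at 13.59% there and 8.99% in the NK-depleted library.

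**Figure D1:**
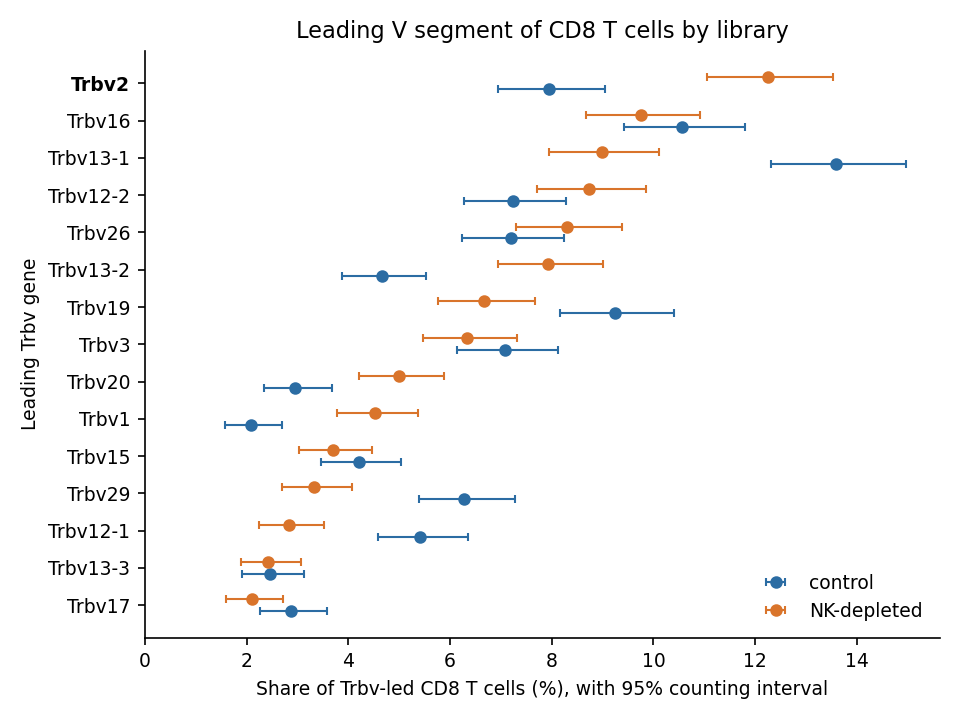
Share of each leading Trbv gene among Trbv-led CD8 T cells (x axis, percent, bars are exact 95% counting intervals) for the 15 Trbv genes (y axis) with at least 50 cells in each library, control in blue and NK-depleted in orange. Trbv2 stands at 7.95% and 12.25%, and Trbv13-1 at 13.59% and 8.99%.

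The Trbv2 share moved with depth in the control library. With CD8 T cells put into 4 equal bins from the shallowest to the deepest, Trbv2 led 5.39%, 5.40%, 7.21% and 11.26% of Trbv-led control cells, and 10.05%, 11.95%, 12.33% and 13.29% of Trbv-led NK-depleted cells. The NK-depleted share was the higher one in each of the 4 bins, with overlapping intervals in the shallowest (3.41 to 8.05 and 7.28 to 13.43) and the deepest (9.29 to 13.47 and 11.19 to 15.62). When a lead of at least 3 UMIs and 80% of the Trbv UMIs of a cell was required, Trbv2 led 32.19% and 47.73% of the cells that remained. Over the alternatives the ratio of the shares ran from 1.48 to 1.77.

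In gene expression the Trbv2-led cells stood close to the other Trbv-led cells of their own library. A gene was counted as apart when it differed by at least 1.5-fold and reached 50 CPM in 1 of the 2 sums. In the control library 1 of 2998 genes was higher (0.0334%), namely Trbv2 itself, by which the cells were chosen, and 6 were lower (0.2%). Among NK-depleted cells 8 of 2909 genes were higher (0.275%), Trbv2 among them, and 2 were lower (0.0688%). Of 2778 genes measured in both libraries, Trbv2 was the gene counted higher in both (0.036%) and Ccl3 the gene counted lower in both (0.036%). Of these 2778 genes, 53.02% had the same direction in both libraries. The median log2 ratio over all genes of at least 50 CPM was -0.0017 in control cells and 0.0067 in the NK-depleted library.

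Grouping the cells by each other V segment gave a scale for these counts. Each of the 9 segments that led at least 100 cells in both libraries gave a group, which was set against all other Trbv-led cells by the same rule, with Trbv genes left out. Trbv2 had 6 genes apart in the control library, the fewest of the 9 groups, where the count ran up to 63 for Trbv26. It had 9 in the NK-depleted library, rank 6 of the 9, where the count ran from 6 to 32. The Trbv2 group was also the outermost of the groups at the same end in both libraries for 7 genes, the fewest of the 9, against 15 to 176 for the others. Groups of fewer cells carry more counting error, and the Trbv2 group was the largest in the NK-depleted library and ranked 4 by size in the control library.

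**Figure D2:**
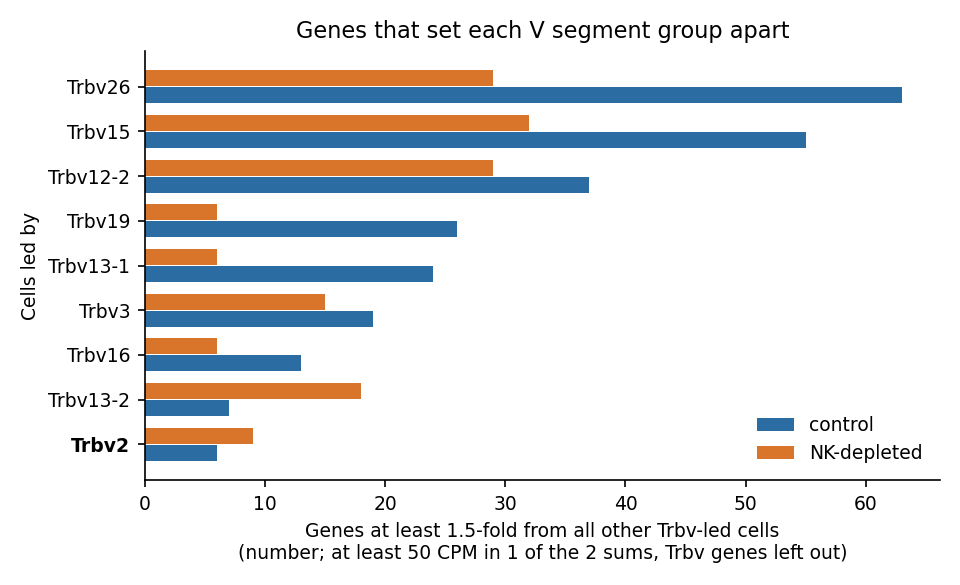
Number of genes at least 1.5-fold from all other Trbv-led cells (x axis) for the cells led by each of 9 Trbv genes (y axis), in the control (blue) and NK-depleted (orange) library. Trbv2 has 6 and 9 such genes, against up to 63 for Trbv26 in control cells and 32 for Trbv15 in the NK-depleted library.

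The 7 genes at which Trbv2-led cells were outermost in both libraries were Gzmb, Emc7, Ddrgk1, Ppdpf, Agpat3 and Kdm2a, all lowest, and Ergic3, highest. Of these only Gzmb was on a T cell state list. Granzyme B (Gzmb, chr14:56258838-56262260, minus strand) is a serine protease that T cells release into their targets. Its level was 1648 CPM in Trbv2-led and 2212 CPM in other Trbv-led control cells, 1.34-fold lower (1.31 to 1.37). In the NK-depleted library the levels were 2778 and 3114 CPM, 1.12-fold lower (1.104 to 1.138). The 10 other V segment groups ranged from 1723 to 2849 CPM and from 2796 to 3717 CPM, so the Trbv2 value lay just below the lowest of them each time. The share of cells with a Gzmb UMI did not follow that order, at 87.76% of Trbv2-led and 86.14% of other control cells after each cell was thinned to 6800 UMIs.

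Genes of the cytotoxic granule leaned low among control members and slightly high among NK-depleted members. At a log2 ratio of 0.32 either way and at least 10 CPM, a threshold for lists that 3.18% of all 7632 control genes passed upward and 4.02% downward, 0 of 16 measured granule genes were higher and 6 lower. Their median log2 ratio was -0.15 beside -0.0039 over all genes. In the NK-depleted library, where 3.39% of 7530 genes passed upward and 2.67% downward, 3 of 17 were higher and 1 lower, with a median of 0.11 beside 0.0040. The remaining members of the 18 on the list were too low to be measured.

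Single granzymes differed widely. Granzyme F (Gzmf, chr14:56205263-56211417, minus strand), from a cluster of granzymes beside Gzmb, stood at 286 CPM in Trbv2-led and 385 CPM in other control cells. In the NK-depleted library it stood at 2133 and 1383 CPM, 1.54-fold higher (1.51 to 1.57) and the highest of 11 V segment groups, whose others ran from 490 to 2107 CPM. The spread among V segment groups was wide, from 58.2 to 1024 CPM in the control library. Without cells that had a UMI of Mki67 or Top2a, the NK-depleted difference turned over, to a log2 ratio of -0.52. Prf1, the pore-forming perforin, stood at 326 against 396 CPM in control cells and 473 against 434 CPM in NK-depleted cells. The lower control CPM of Gzmf and Prf1 did not come with lower shares of cells with a UMI. After thinning these shares were 21.43% against 17.37% for Gzmf and 65.31% against 62.47% for Prf1, with overlapping intervals.

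Gzmk, a granzyme often seen in less terminal effector cells, and Gzma were lower among Trbv2-led control cells. Gzmk stood at 55.2 against 83.4 CPM, 1.51-fold lower (1.33 to 1.73), and at 34.6 against 35.4 CPM in NK-depleted cells. After thinning, 22.96% of Trbv2-led and 35.75% of other control cells had a Gzmk UMI (37.62% and 50.64% before thinning), and 17.03% and 16.07% in the NK-depleted library. None of 60 thinned non-T control cells had one, and 3 counts of that total allow a share of cells with a UMI of up to 5.0%; the non-T cells had a median of 11984.5 UMIs. Gzma stood at 140.5 against 236 CPM in control cells and 253 against 324 CPM in NK-depleted cells. A single cell held 34.26% of the Gzma UMIs of the Trbv2-led control cells, whose level without it was 93.2 CPM.

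Chemokines were the group in which a gene outside the rule was apart in both libraries. Ccl3 (chr11:83647844-83649355, minus strand), a chemokine that draws monocytes and T cells, stood at 156 CPM in Trbv2-led and 275 CPM in other control cells, 1.76-fold lower (1.63 to 1.91). It stood at 119 and 204 CPM in NK-depleted cells, 1.71-fold lower (1.59 to 1.84). Among the 11 V segment groups Trbv2 ranked 8 and 10 from the top, and other groups lay as low as 83.5 and 90.2 CPM, so lower levels were seen with other V segments. Counts of Ccl3 were uneven between cells: the cell with the most held 23.24% of the UMIs in the control members and 19.38% in the NK-depleted members. Without cells that had a UMI of Mki67 or Top2a, the control log2 ratio turned from -0.82 to 0.32.

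Xcl1, which attracts cross-presenting dendritic cells, stood at 67.8 against 97.5 CPM in control cells and 71.8 against 129 CPM in NK-depleted cells, where it was 1.79-fold lower (1.63 to 1.97). In the control members 5 cells held 50.34% of the Xcl1 UMIs. Over the alternatives its log2 ratio ran from -0.81 to 0.30 in the control library and from -1.108 to -0.514 in the NK-depleted library. Ccl4, a close relative of Ccl3, stood at 806 against 900 CPM and at 576 against 652 CPM. A single control member held 32.37% of the Ccl4 UMIs, and the level of the control members without it was 550 CPM. Ccl5, made by effector and memory CD8 T cells, stood at 1932 against 2696 CPM in control cells and 1141 against 1090 CPM in NK-depleted cells. Of 8 measured cytokine and chemokine genes in the control library 0 were higher and 4 lower (median log2 -0.29), and of 9 in the NK-depleted library 3 were higher and 3 lower (median 0.065). Over all genes 3.18% were higher and 4.02% lower in the control library, and 3.39% and 2.67% in the NK-depleted library.

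A single cell carried much of the cytokine signal of the NK-depleted members. Il2, the T cell growth factor, stood at 56.6 CPM in Trbv2-led and 5.75 CPM in other NK-depleted cells, but 369 of its 382 UMIs came from 1 cell, and the level without that cell was 1.94 CPM. The same cell held 915 Ifng, 664 Ccl4 and 156 Ccl3 UMIs among 36702 UMIs in all, with 4 UMIs of macrophage and dendritic cell markers and 1 UMI of Trbv2. Ifng, the interferon that activates macrophages and antigen presentation, stood at 470 CPM with that cell and 336 CPM without it, against 349 CPM in other NK-depleted cells. In the control library Ifng stood at 324 against 433 CPM. The share of control cells with an Ifng UMI had the other order, at 63.78% against 56.73% after thinning and 74.76% against 66.39% before it. Among control members Il2 stood at 3.44 CPM.

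Inhibitory receptors differed little in control cells and leaned high in the NK-depleted library. Lag3 stood at 489 against 467 CPM in control cells and 382 against 297 CPM in NK-depleted cells, 1.29-fold higher (1.23 to 1.34). Pdcd1, which encodes PD-1, stood at 237 against 229 CPM and at 219 against 177 CPM. Havcr2, which encodes TIM-3, stood at 135 against 157 CPM in control cells and 182 against 147 CPM in NK-depleted cells. Trbv2 ranked 2 or 3 of the 11 groups for these 3 genes in the NK-depleted library and 4 to 7 in the control library. After thinning, a Havcr2 UMI was found in 53.31% of Trbv2-led and 42.19% of other NK-depleted cells, against 19.35% of 31 non-T cells with a median of 9271 UMIs. Before thinning the shares were 63.61% and 53.3%. Of 12 measured genes in the inhibitory list, 0 were higher and 1 lower in the control library (median log2 0.058), and 1 higher and 1 lower in the NK-depleted library (median 0.19). The shares over all genes were 3.18% higher and 4.02% lower in the control library, and 3.39% and 2.67% in the NK-depleted library. Tox, a transcription factor of exhausted T cells, stood at 82.0 against 73.6 CPM and at 26.1 against 23.2 CPM.

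Genes of stem-like and memory T cells leaned lower in the NK-depleted members, and had a median near 0 in the control members. Tcf7, which encodes TCF-1, the factor that keeps progenitor T cells, stood at 43.1 against 57.5 CPM in control cells and 36.1 against 48.1 CPM in NK-depleted cells, 1.33-fold lower in each (1.15 to 1.56 and 1.17 to 1.53). Trbv2 ranked 9 of 11 both times. Bcl2, a survival factor, stood at 200.5 against 234 CPM and at 269.5 against 338 CPM. Il7r, the interleukin-7 receptor, went the other way, at 300.2 against 260 CPM and 282 against 266 CPM. Of 13 measured stem and memory genes 0 were higher and 1 lower in the control library (median log2 -0.031), and 0 higher and 4 lower in the NK-depleted library (median -0.24). Beside these stand 3.18% higher and 4.02% lower over all control genes, and 3.39% and 2.67% over all NK-depleted genes.

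Mki67, Top2a and Hist1h1b ranked among the 3 highest of the 11 V segment groups in each library. Mki67, a marker of cycling cells, stood at 358 against 308 CPM in control cells and 490 against 387 CPM in NK-depleted cells, rank 3 and 1 of 11 groups. Top2a, the topoisomerase that untangles replicated DNA, stood at 368 against 315 CPM and 572 against 468 CPM, rank 2 and 1. Hist1h1b, a linker histone made in S phase, stood at 756 against 591 CPM and 943 against 693 CPM, rank 2 in both. Without cells that had a UMI of Mki67 or Top2a, its log2 ratio in the control library moved from 0.35 to -0.38. The histones formed no list of their own. Of the 10 genes with the highest mean ratio over the 2 libraries, 7 were Hist1 genes, among them Hist1h1d at 112 against 81.3 CPM and 164 against 114 CPM.

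Shares of cycling cells are given before and after thinning. A UMI of Mki67 or Top2a was found in 64.29% of Trbv2-led and 56.07% of other control cells, and after thinning in 49.49% (42.29 to 56.71) and 44.55% (42.46 to 46.66). In the NK-depleted library the shares were 71.89% and 70.07%, and after thinning 63.41% (57.84 to 68.72) and 59.62% (57.54 to 61.67), beside 8.33% and 3.23% of non-T cells. The intervals of the 2 groups of cells overlapped in each library. Of 17 measured G2 and M phase genes 0 were higher and 0 lower in the control library (median log2 0.070), and of 18 in the NK-depleted library 4 were higher and 0 lower (median 0.24). Of 16 S phase genes 0 and 2 were higher and none lower, with medians of 0.022 and 0.20. Among all genes 3.18% were higher and 4.02% lower in the control library, and 3.39% and 2.67% in the NK-depleted library.

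**Figure D3:**
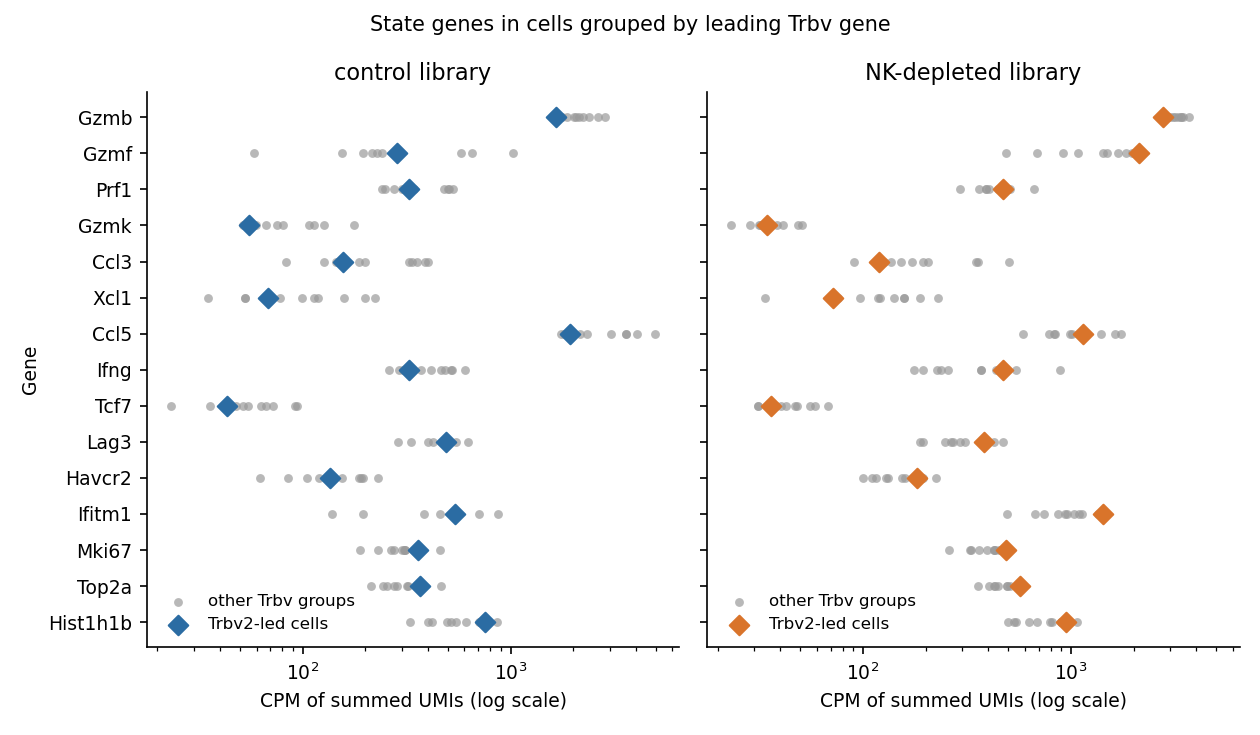
CPM of 15 state genes (y axis) on a log axis (x axis), in cells grouped by leading Trbv gene, for the 11 groups of at least 100 cells in the control library (left) and the NK-depleted library (right). Diamonds are the Trbv2-led cells and grey points the 10 other groups: the Trbv2 value is the lowest for Gzmb in both libraries and the highest for Gzmf, Ifitm1, Mki67 and Top2a in the NK-depleted library, and otherwise it lies within the range of the other groups.

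Interferon-induced genes had medians slightly below 0, while their summed levels were close. The sums were 8182 against 8212 CPM in control cells and 6484 against 6502 CPM in NK-depleted cells, rank 7 and 6 of 11 groups. Ifit3, an antiviral effector, stood at 427 against 446 CPM in control cells and 228 against 235 CPM in NK-depleted cells. Oasl2, a relative of the antiviral oligoadenylate synthetases, was apart in the control library at 42.2 against 65.8 CPM, 1.56-fold lower (1.34 to 1.82), and stood at 40.7 against 50.9 CPM in NK-depleted cells. Of 20 measured interferon response genes 0 were higher and 2 lower in the control library (median log2 -0.17), and 0 higher and 3 lower in the NK-depleted library (median -0.11). The shares over all genes were 3.18% higher and 4.02% lower in the control library, and 3.39% and 2.67% in the NK-depleted library. The Ifitm genes, membrane proteins that block virus entry, leaned the other way. Ifitm1 stood at 537.5 against 523 CPM in control cells and 1429 against 926 CPM in NK-depleted cells, 1.54-fold higher (1.51 to 1.58) and the highest of 11 groups.

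**Figure D4:**
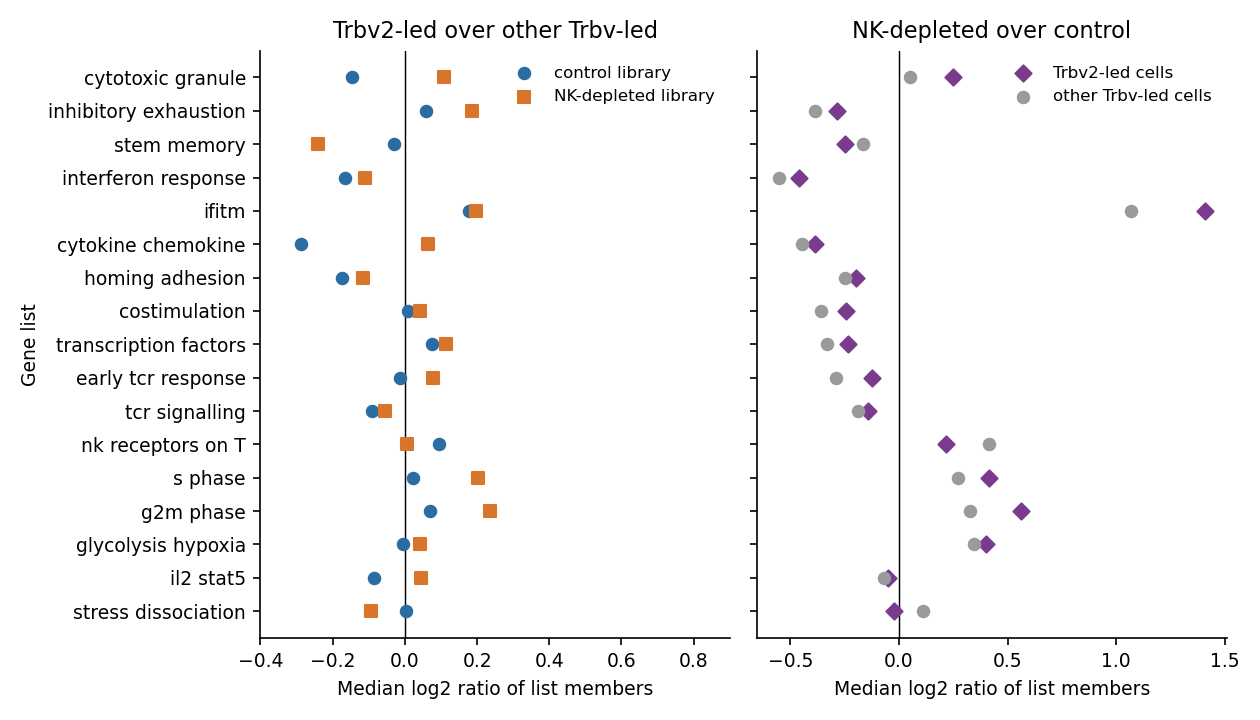
Median log2 ratio (x axis) of the measured members of 17 gene lists (y axis). The left panel sets Trbv2-led over other Trbv-led cells in the control (blue circles) and NK-depleted (orange squares) library, where no median passes 0.3 either way, and the right panel sets NK-depleted over control in Trbv2-led (purple diamonds) and other Trbv-led (grey circles) cells, where the 3 Ifitm genes stand at 1.41 and 1.07.

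Homing and adhesion genes had medians slightly below 0 in both libraries, and NK receptor genes moved in no shared direction. The summed homing and adhesion level was 1299 against 1389 CPM in control cells and 1044 against 1032 CPM in NK-depleted cells. It ranked 8 and 7 of 11 groups. Of the measured homing and adhesion genes, 0 of 11 were higher and 3 lower in control members (median log2 -0.17), and 1 of 10 higher and 3 lower in NK-depleted members (median -0.12). Of the NK receptor genes, 2 of 9 were higher and 3 lower (median 0.095), and 1 of 12 higher and 3 lower (median 0.0046). Among all genes 3.18% were higher and 4.02% lower in the control library, and 3.39% and 2.67% in the NK-depleted library. Cx3cr1, the fractalkine receptor of circulating effector cells, stood at 80.4 against 68.7 CPM and 50.3 against 35.9 CPM, rank 3 of 11 in both libraries. Itga4, the alpha chain of the integrin VLA-4, stood at 153 against 172 CPM and 48.7 against 53.0 CPM. Ccr2, a receptor for inflammatory chemokines, stood at 61.9 against 69.6 CPM and 63.5 against 90.0 CPM. Klra7, a Ly49 receptor of NK cells and some CD8 T cells, stood at 8.94 against 16.3 CPM and 21.3 against 29.5 CPM, rank 9 and 8 of 11. Klrg1, a receptor of short-lived effector cells, was scarce, at 2.52 against 3.12 CPM and 2.52 against 6.07 CPM. Klra1, another Ly49 receptor, stood at 0.458 against 6.92 CPM in control cells, where it rested on 2 UMIs in the members, and at 7.995 against 13.1 CPM in NK-depleted cells.

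Genes of antigen-presenting cells were apart in the NK-depleted library and rested on few cells. Cd74, the invariant chain of MHC class II, stood at 86.6 against 53.4 CPM there and at 91.9 against 67.2 CPM in the control library, but 5 cells held 96.07% and 96.51% of its UMIs in the members. Cells with at least 20 UMIs of macrophage and dendritic cell markers made up 4 of 210 control members (1.90%) and 9 of 338 NK-depleted members (2.66%), against 1.81% and 1.40% of other Trbv-led cells. Without them the NK-depleted log2 ratio of Cd74 turned from 0.70 to -0.86, while 7, 11 and 127 genes were apart in the comparisons of the control library, the NK-depleted library and between libraries, beside 7, 10 and 112 with all members.

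Markers of other cell types were summed over each list. Summed over 10 macrophage markers the level was 32.8 and 18.7 CPM in the members, of which 1 and 2 markers were at 0, against 36.0 and 25.1 CPM in other Trbv-led cells. Over 9 dendritic cell markers it was 350 and 510 CPM, of which 1 and 0 were at 0, against 336 and 318 CPM. Cst3 alone stood at 153 and 302 CPM in the members, of which 81.43% and 82.25% had a UMI of it. Over 8 NK cell markers it was 65.3 and 104 CPM with 2 at 0 in each library, Ncr1 among them, against 88.6 and 113 CPM. Over 6 B cell markers it was 37.3 and 29.9 CPM with 4 at 0 in each, Cd79a among them, against 54.4 and 40.4 CPM. Over 7 markers of plasmacytoid dendritic cells it was 606 and 463 CPM with 4 and 2 at 0, against 711 and 507 CPM. Bst2 alone stood at 587 CPM in the control members, 95.24% of which had a UMI of it, so this sum does not measure such cells. Over 6 markers of CD4 and regulatory T cells it was 585 and 547 CPM, against 557 and 537 CPM, and Cd4 was at 0 in the members of both libraries. Il2rb alone stood at 541 CPM in the control members, with a UMI in 95.24% of them, so the same limit holds for this sum. The sums over lists for gamma delta T cells, neutrophils, fibroblasts, endothelium, tumour epithelium and erythroid cells ran from 0.0 to 37.8 CPM in the members and from 0.113 to 55.1 CPM in other Trbv-led cells. The part of such cells in the differences above was not tested beyond the values given here.

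Between the libraries the Trbv2-led cells differed at more genes than they did from other Trbv-led cells within a library. Of 3050 genes, 52 were higher after NK depletion by at least 1.5-fold (1.7%) and 60 lower (1.97%). In other Trbv-led cells the counts were 17 higher (0.561%) and 68 lower (2.24%) of 3030, over a larger number of cells. The split of higher against lower depended on the scaling. It was 74 against 49 with TMM factors, 71 against 50 with median-of-ratios factors and 34 against 72 with the mean over cells of each cell's CPM. The Trbv2-led and the other cells come from the same 2 libraries, so agreement between them adds no replicate, and each gene's values are given side by side.

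Among genes of at least 50 CPM in 1 library, and after Il2, whose level rests on 1 cell, granzymes of the Gzmb cluster had the largest ratios of NK-depleted over control members. Gzmf stood at 286 CPM in control and 2133 CPM in NK-depleted Trbv2-led cells, 7.46-fold higher (7.04 to 7.92), and at 385 and 1383 CPM in other cells, 3.59-fold higher (3.53 to 3.66). Gzmc went from 128.5 to 537 CPM, 4.18-fold (3.82 to 4.58), and from 116 to 431 CPM in other cells. Among the control members 5 cells held 57.66% of the Gzmf UMIs and 54.72% of the Gzmc UMIs. Without the cell with the most UMIs of each gene, the control levels were 221 and 102 CPM. The intervals do not cover this unevenness. Gzmd went from 33.0 to 156 CPM and Gzme from 27.0 to 104 CPM, although 1 cell held 80.56% of the Gzmd UMIs and 53.39% of the Gzme UMIs of the control members. Gzmb stood at 1648 and 2778 CPM, 1.69-fold higher (1.64 to 1.73), and at 2212 and 3114 CPM in other cells.

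These granzymes were also found outside T cells, at higher levels in the NK-depleted library. Non-T cells held 3.77 CPM of Gzmf in control cells and 88.1 CPM in NK-depleted cells, and 27.7 and 152 CPM of Gzmb. These levels were far below those of the T cells, but the thinned share of cells with a Gzmf UMI, 59.31% of Trbv2-led NK-depleted cells, lay close to the 54.84% of non-T cells, so the share is not read as expression. Of 17 measured granule genes 8 were higher and 2 lower between the libraries in Trbv2-led cells (median log2 0.25), at a threshold that 10.6% of all 7686 genes passed upward and 15.9% downward. In other Trbv-led cells, where 6.35% and 11.5% of 7603 genes passed, 7 of 17 were higher and 2 lower (median 0.052).

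The Ifitm genes and cell cycle genes were also higher. Ifitm2 stood at 223 CPM in control and 658 CPM in NK-depleted members, 2.95-fold higher (2.75 to 3.16), against 178 and 599 CPM in other cells, and non-T cells held 469 and 638 CPM. Ifitm1 stood at 537.5 and 1429 CPM, 2.66-fold higher (2.54 to 2.78), against 523 and 926 CPM in other cells. Mki67 stood at 358 and 490 CPM and Top2a at 368 and 572 CPM. Of 18 measured G2 and M phase genes 16 were higher and 0 lower in Trbv2-led cells (median log2 0.56), and 10 and 0 in other cells (median 0.33). Of 16 S phase genes 12 and 5 were higher, and of 14 glycolysis and hypoxia genes 9 and 7, with none lower. The median over all genes was -0.041 in Trbv2-led and -0.054 in other cells. Over all genes 10.6% were higher and 15.9% lower in Trbv2-led cells, and 6.35% and 11.5% in other cells.

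Tox and Itga4 had some of the smallest ratios of NK-depleted over control. Tox (chr4:6686353-6991557, minus strand) stood at 82.0 CPM in control and 26.1 CPM in NK-depleted members, 3.15-fold lower (2.62 to 3.79), and at 73.6 and 23.2 CPM in other cells, 3.17-fold lower (2.95 to 3.41). A Tox UMI was found in 40.31% of control and 12.3% of NK-depleted members after thinning, and in 57.14% and 30.47% before it, against 1 of 60 and 0 of 31 non-T cells. Itga4 (chr2:79255426-79333123, plus strand) stood at 153 and 48.7 CPM, 3.13-fold lower (2.74 to 3.59), and at 172 and 53.0 CPM in other cells. Iigp1, an interferon-induced GTPase, stood at 74.2 and 22.4 CPM, 3.32-fold lower (2.73 to 4.05), against 99.8 and 40.7 CPM.

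Interferon-induced genes were lower as a list. Of 20 measured members 0 were higher and 12 lower in Trbv2-led cells (median log2 -0.46), and 0 and 16 in other cells (median -0.55). The list threshold was passed downward by 15.9% of all genes in Trbv2-led cells and by 11.5% in other cells, and upward by 10.6% and 6.35%. Ifit3 stood at 427 and 228 CPM, 1.87-fold lower (1.75 to 2.01). For Ccl5 the members had 1932 and 1141 CPM, 1.69-fold lower (1.64 to 1.75), and at 2696 and 1090 CPM in other cells, 2.47-fold lower (2.45 to 2.50). Of 12 inhibitory genes 3 were higher and 6 lower in the members and 2 and 7 in other cells. Lag3 stood at 489 and 382 CPM, 1.28-fold lower (1.21 to 1.36), against 467 and 297 CPM. Nt5e, the ectonucleotidase CD73, stood at 71.0 and 33.3 CPM in the members, 2.13-fold lower (1.79 to 2.54), against 63.5 and 48.0 CPM.

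**Figure D5:**
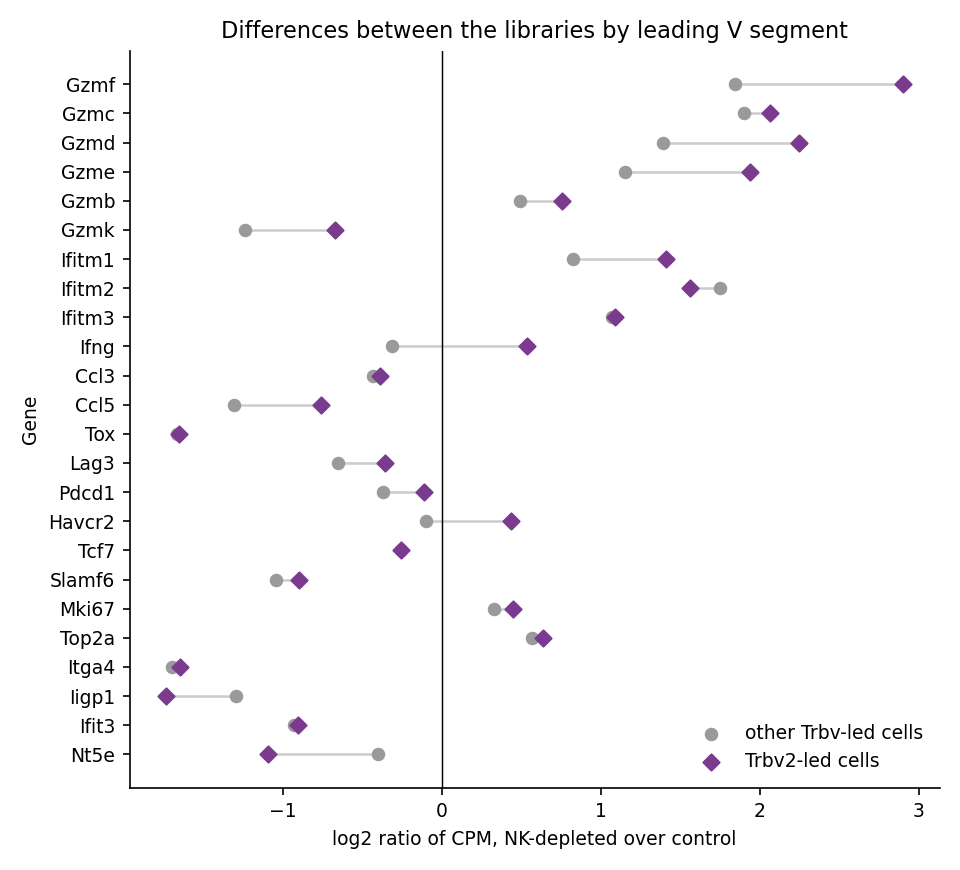
log2 ratio of CPM, NK-depleted over control (x axis), of 24 genes (y axis) in Trbv2-led cells (purple diamonds) and other Trbv-led cells (grey circles), drawn without intervals. Gzmf stands at 2.90 and 1.85 and Tox at -1.65 and -1.67, while Ifng (0.53 and -0.31) and Havcr2 (0.43 and -0.099) lie on opposite sides of 0.

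The alpha chain segments, which the rule did not use, showed that the Trbv2-led cells were not of 1 receptor. A leading Trav family was found in 73 control members (34.76%) and 127 NK-depleted members (37.57%), and single Trav genes were pooled into families because many have near-identical copies whose reads can be split between them. The members used 13 families over the 73 control cells and 17 over the 127 NK-depleted cells. Trav3 led in the control library, in 15 of 73 cells (20.55%, 11.98 to 31.62), against 8.29% of other Trbv-led cells (6.54 to 10.32). Trav14 led in the NK-depleted library, in 20 of 127 cells (15.75%, 9.89 to 23.27), against 5.85% (4.41 to 7.58). Neither difference was as large in the opposite library. There Trav3 led 11.02% of NK-depleted members against 8.94% of other cells, and Trav14 led 4.11% of control members against 5.52%. Trav16, the commonest family of other Trbv-led cells, was found in 17.81% and 11.81% of the members with a family, against 18.07% and 25.06% of other cells.

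The evenness of the alpha chain families was measured by the inverse Simpson index. The inverse Simpson index, the number of equally common families that would give the same diversity, was 7.31 in the control members and 9.76 in the NK-depleted members. Among the other 10 V segment groups it ran from 4.39 to 11.2 in control cells and from 4.95 to 9.24 in the NK-depleted library. The Trbv2 group stood above that range in the NK-depleted library. It also had the most cells with a leading Trav family there, 127 against 37 to 117. The index depends in part on the number of cells and was not computed at equal numbers. A leading J segment of the alpha chain was found in 1 member and one of the beta chain in none, so clones could not be traced.

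The beta constant segments stood low in the Trbv2-led cells. Trbc1 stood at 742 against 1101 CPM in control cells and 638 against 733 CPM in NK-depleted cells, rank 10 and 9 of 11 groups. Trbc2 stood at 1320 against 1740 CPM and 1284 against 1500 CPM, rank 11 and 10. Trac stood at 787 against 844 CPM and 717 against 708 CPM. Trbc1 had more UMIs than Trbc2 in 25.6% of control members (19.81 to 32.12) and 24.18% of NK-depleted members (19.69 to 29.13), against 32.17% (30.30 to 34.08) and 26.62% (24.86 to 28.44) of other cells. The 2 constant segments are near-identical copies, so the split of reads between them is uncertain.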

How the data were processed

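The authors deposited UMI counts per gene and barcode over 32285 genes, whole numbers that were not normalized. Per the file headers they come from Cell Ranger 6.1.2. The mm10 genome build and Seurat 4.0.6 are named per the submitters' processing notes. How barcodes were filtered is not stated, and every barcode had at least 500 UMIs. No cell annotation was used.

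UMIs were summed over the cells of a group and expressed as CPM of those sums, so deep cells weigh more. Ratios carry exact conditional binomial 95% intervals, and shares exact Clopper-Pearson intervals. Members and gene lists were chosen with earlier results of these data known. Cells of 1 library share their source and are not replicates. For shares of cells with a UMI, each cell was thinned to 6800 UMIs, which left out 14 control and 21 NK-depleted members, and 238 and 213 other Trbv-led cells. Named genes were, per list, the 4 with the largest mean log2 ratio of Trbv2-led over other Trbv-led cells, the 10 genes at each end of that ratio and of the ratio between libraries, leaving out receptor segments, mitochondrial, ribosomal, sex-linked and unnamed genes, and a set of CD8 T cell genes. Not all of them are reported here. Emc7, Ddrgk1, Ergic3, Ppdpf, Agpat3 and Kdm2a were named after their values were seen, as was the comparison of 9 V segment groups.

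Non-T cells were to have no Cd3 or Cd8 UMI and at least 5 UMIs of macrophage, dendritic cell and plasmacytoid dendritic cell markers. That left 7 control and 0 NK-depleted cells, so at most 2 Cd3 UMIs and at least 50 marker UMIs were used, a rule set after seeing the data. Doublets were not called. Coordinates and sequences came from GENCODE M21 on GRCm38, the build that mm10 names. The calculation was tested on simulated data. Python 3.11.15, numpy 2.4.6, scipy 1.17.1, pandas 2.3.3, R 4.3.3, and edgeR 4.0.16 and DESeq2 1.42.0 for scaling factors were used.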

Additional observations from a re-analysis of the deposited data

Results flagged for a closer look

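In summed CPM, Havcr2 and Ifng differed between the libraries in opposite directions in the Trbv2-led cells and in the other Trbv-led cells. Each had a counting interval clear of no difference in both groups of cells. For Havcr2 the log2 ratio of NK-depleted over control was 0.4349 in the Trbv2-led cells and -0.0988 in the others. For Ifng it was 0.5346 and -0.3102, and 1 Trbv2-led NK-depleted cell held 28.83% of the Ifng UMIs. Without that cell the level was 336 CPM, beside 324 CPM in the control members. The thinned shares of cells with a UMI moved the same way in both groups of cells. From control to NK-depleted, Havcr2 went from 40.31% to 53.31% of Trbv2-led cells and from 37.89% to 42.19% of the others. Ifng went from 63.78% to 57.73% of Trbv2-led cells and from 56.73% to 50.61% of the others. The difference was not tested in either case, because each group had 1 library.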

How the results depend on the processing

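The ratio of the Trbv2 shares stayed above 1 under every alternative run (1.483 to 1.766), but the counts of genes at least 1.5-fold apart did not hold. With a lead of at least 3 UMIs and 80% of Trbv UMIs, the shares were 32.19% and 47.73%, and 30 genes were apart in the control library, 122 in the NK-depleted library, 6 in both and 207 between libraries. Fewer cells remained there and without cells that had a UMI of Mki67 or Top2a, where the control share was 6.562% and the counts were 55, 42 and 197. Without the filter on CPM the counts were 2516, 2429, 522 and 3165, as genes of few UMIs entered. The mean over cells gave 20 and 6 genes in the 2 libraries. Weighting every V segment the same gave 13 in the control library, and weighting other cells to the UMI totals of the members gave 4, an alternative chosen after seeing the data. For these last 2 settings the cause was not tested.

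Among values at least 1.5-fold apart at 50 CPM with all members, the log2 ratios that changed sign were, with the stricter lead, -2.703 for Il2 and -2.322 for Cd74 (Trbv2-led over other, NK-depleted library), and -1.014 for Il2 and -0.1589 for Gzma between libraries. Without cycling cells they were 0.32 for Ccl3 (control), -2.695 for Il2, -0.5153 for Gzmf and -3.752 for Cd74 (NK-depleted), and -2.06 for Il2 and 0.1231 for Cx3cr1 between libraries. Without cells with at least 20 macrophage or dendritic cell marker UMIs Cd74 stood at -0.8611, and without the top cell of each gene Il2 stood at -1.571, Cd74 at -0.2786 and Il2 between libraries at -0.6254; both alternatives were chosen after seeing the data. The cause was not tested. No paired analysis was possible because each group had 1 library, so there was also no replicate to leave out. A mitochondrial limit of 5%, at least 1000 genes, and leaving out cells with a second Trbv gene at 2 UMIs turned none of these over. Of all named gene values, those near 0 included, 247 of 311 kept their sign with the stricter lead, 231 of 299 without cycling cells, 311 of 315 with the mitochondrial limit, 309 of 315 without a second Trbv gene, 298 of 315 with the mean over cells and 292 of 311 without the top cell.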
